A study of Mus musculus with 9 samples.

Results

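Transcripts of p53 and of 9 genes known to answer p53 or cellular stress were followed across mouse CD4 T cells. They were chosen by their place in the pathway after log2 differences between these groups had been seen, so the differences that follow are partly what chose them. The 10 genes were Trp53, Mdm2, Cdkn1a, Ccng1, Plk2, Plk3, Sesn1, Trp53inp1, Zmat3 and Phlda3. Probe sets were taken by gene symbol in the annotation of the array, and the probe set with the highest mean over 9 arrays stood for each gene. This gave 19 probe sets for 9 of 18193 named genes. Trp53, the gene of p53 itself, is not analysed here, because no probe set carried its symbol in that annotation. The mean levels that chose the main probe sets ran from 7.47 for Plk3 to 10.11 for Ccng1 on the log2 scale and are a description only.

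The study compared 3 groups of 3 arrays, called biological replicates in its design text. Cells of the induced regulatory T cell (iTreg) groups came from spleens of Foxp3EGFP mice on a C57BL/6 (B6) background. CD4+ cells negative for the fluorescent reporter of Foxp3, the master regulator of regulatory T cells, were sorted. They were stimulated for 72 hours through CD3 (antibody at 2.5 µg/ml) and CD28 (antibody at 1 µg/ml), and IL2 was present at 100 U/ml. Purified TGFβ1 at 5 ng/ml made the purTGFβ_iTreg group, and freeze-thaw lysates of platelets from wild type mice made the pltTGFβ_iTreg group. The third group, Tconv, stands for conventional T cells. The origin given above is that of the iTreg cells and is not carried over to Tconv. How it was cultured is not settled by the labels, since the protocol text attached to every one of the 9 samples lists TGFβ1 for Tconv too. The number and age of the animals, and whether cultures were sorted again before RNA was taken, are not given in the sources used here.

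The transcription factor p53 is held low by Mdm2, a ubiquitin ligase that is itself a p53 target, and it accumulates when DNA is damaged or growth is disturbed. It then raises genes that stop the cell cycle, repair DNA, limit growth signalling or start cell death. In T cells the same genes also answer receptor stimulation, cytokines and nutrient supply, so their transcripts are not readouts of p53 alone. Activated T cells divide fast, and p53 has been tied to restraint of their expansion and to the formation of induced regulatory T cells.

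Of the 10 genes, 8 had a promoter window in RefSeq (build GRCm38.p6), some with more than 1 start. Each window ran from 250 bases before to 50 bases after a transcript start. The p53 decamer consensus, which reads the same on both strands, was searched without mismatches. It occurred in 5 of the 10 windows of these genes, belonging to Trp53, Mdm2, Cdkn1a, Ccng1 and Sesn1, against 8.36% of all 32851 windows. A head-to-tail pair of decamers with no spacer and at most 1 mismatch in its 20 bases occurred in Cdkn1a and Ccng1, against 0.0883% of all windows. The genes were chosen by their place in the p53 pathway, and the motif after the windows were seen. These shares are therefore a description and no test of enrichment. Each pair contains a decamer already counted, and Cdkn1a holds a further decamer outside its pair. For Cdkn1a these lie before the earlier of its listed starts, and the window of the later start held no decamer and no pair. Cdkn1a and Ccng1 are shown because they share this pair yet differed from Tconv in opposite directions, and Mdm2 and Sesn1 because they held a single decamer. Capitals mark the pair in the first pair of sequences and the decamer in the others.
Cdkn1a, chr17:29090729-29090978, + strand, bases 250 to 1 upstream of the start: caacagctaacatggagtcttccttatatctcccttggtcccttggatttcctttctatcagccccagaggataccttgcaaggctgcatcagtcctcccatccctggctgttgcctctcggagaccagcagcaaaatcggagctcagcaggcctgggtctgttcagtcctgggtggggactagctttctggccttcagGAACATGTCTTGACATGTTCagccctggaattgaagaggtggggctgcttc
Ccng1, chr11:40755337-40755536, - strand, bases 250 to 51 upstream of the start: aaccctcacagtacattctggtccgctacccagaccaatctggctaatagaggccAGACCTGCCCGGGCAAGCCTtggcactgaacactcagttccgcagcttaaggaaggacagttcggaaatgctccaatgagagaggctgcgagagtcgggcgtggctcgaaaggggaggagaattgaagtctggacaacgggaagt
Mdm2, chr10:117710910-117710969, - strand, bases 211 to 152 upstream of the start: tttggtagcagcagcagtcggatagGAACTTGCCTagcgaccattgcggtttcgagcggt
Sesn1, chr10:41887241-41887300, + strand, bases 198 to 139 upstream of the later of its listed starts: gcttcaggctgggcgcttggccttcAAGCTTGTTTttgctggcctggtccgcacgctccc
These letters are matches to a consensus and no binding was measured here. No decamer was found in the windows of Plk2, Plk3 and Phlda3, which says only that these letters are not in those 300 bases.

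The arrays of a group were close to each other. Pearson correlations between arrays, taken across probe sets as a description, were 0.994 to 0.998 within groups, 0.993 to 0.995 between the iTreg groups and 0.956 to 0.970 between Tconv and iTreg. Upper quartiles of the deposited values were 6.59 to 6.70 in Tconv, 6.88 to 6.95 in purTGFβ_iTreg and 6.86 to 6.91 in pltTGFβ_iTreg. The deposited arrays thus did not share 1 distribution, and differences from Tconv depend on the scaling. Sex-linked transcripts split the arrays the same way: Xist, made from a silenced X chromosome, read 10.63 to 10.94 in Tconv and 3.37 to 3.99 in all iTreg arrays, and Y-linked Eif2s3y read 2.59 to 2.82 and 8.82 to 9.18. In the comparisons with Tconv, the culture and the sex of the animals therefore cannot be told apart. The 3' minus 5' reading of the Gapdh control, a sign of RNA integrity, was -0.16 to -0.09 in Tconv, -0.24 to -0.20 in purTGFβ_iTreg and -0.20 in pltTGFβ_iTreg on the log2 scale. The T cell gene Cd3e averaged 8.95, 8.57 and 8.53 in the 3 groups, and Cd4 averaged 8.67, 7.95 and 8.06. At the cutoffs given below, none of 6 measured CD4 T cell markers rose and 2 fell with purified TGFβ against Tconv. With platelet lysate 1 rose and 2 fell, beside 29.3% and 28.5% of all named genes called. Cd4 and Cd5 fell in both comparisons, and Cd2 rose with platelet lysate. Between the iTreg groups none passed. Foxp3 averaged 3.79, 3.77 and 3.86 in Tconv, purTGFβ_iTreg and pltTGFβ_iTreg, so its probe set did not set the iTreg groups apart. That probe set read only 3.66 to 3.90 over all arrays. Whether it read above background was not settled, so it does not show whether Foxp3 itself differed.

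The comparison of purTGFβ_iTreg with Tconv asked what sets induced cells made with the purified cytokine apart from Tconv. The stress genes did not move as a block. Trp53inp1, Mdm2 and Ccng1 rose, while Plk2, Phlda3, Cdkn1a and Plk3 fell, and Sesn1 and Zmat3 did not pass. Passing means an adjusted p under 0.1 over 45037 probe sets (limma, Benjamini-Hochberg) and a log2 difference above 0.5 in size, slightly stricter than the 1.4-fold of the study. At 1.4-fold exactly, the same 7, 7 and 4 of the 9 genes passed in the 3 comparisons. Thus 7 of 9 measured genes passed, beside 29.3% of all named genes and 25.8% of all probe sets. The 3 rises stand beside 14.5% of named genes called higher, and the 4 falls beside 14.9% called lower. Groups did not overlap for 8 of the 9, beside 62.7% of all named genes. The median log2 difference of the 9 was -0.03, and that of all named genes was -0.17. It moved with the scaling, to 0.03 with array medians centred and to -0.27 under quantile normalization, where that of all named genes was -0.11 and -0.13. In cultures, fewer cells carrying a transcript and less of it per cell cannot be told apart.

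With platelet lysate in place of purified TGFβ, the comparison with Tconv again gave 3 rises and 4 falls among 9, beside 28.5% of all named genes called, 13.9% higher and 14.7% lower, and 25.3% of all probe sets. Trp53inp1, Mdm2 and Ccng1 rose, and Plk2, Phlda3, Cdkn1a and Sesn1 fell. Groups did not overlap for 7 of the 9, beside 59.0% of all named genes. The median log2 difference was -0.09, against -0.16 over all named genes, and under quantile normalization it was -0.29 against -0.13. Both comparisons use the same Tconv arrays, so their likeness is not independent.

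**Figure D1:**
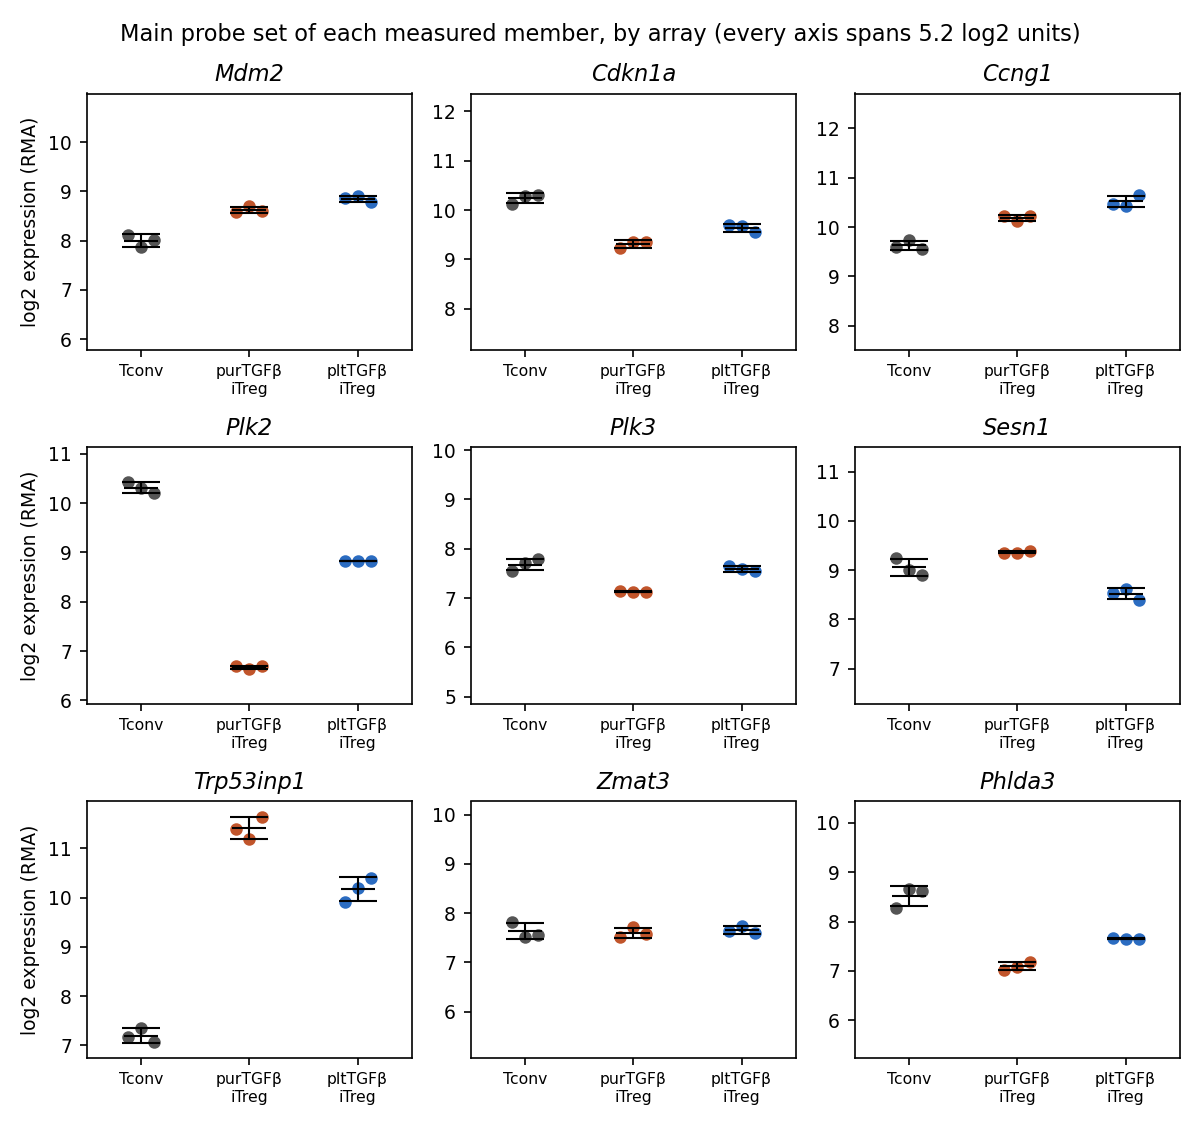
RMA log2 expression of the main probe set of each of the 9 measured genes, with 1 point per array and the mean ± SD of 3 arrays as bars; every vertical axis spans the same number of log2 units. Plk2 reads 10.21 to 10.43 in Tconv, 6.63 to 6.69 in purTGFβ_iTreg and 8.83 in pltTGFβ_iTreg, while the Zmat3 points of all groups overlap.

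The comparison whose difference of means is free of the Tconv arrays set pltTGFβ_iTreg against purTGFβ_iTreg, that is, whole platelet lysate against purified TGFβ1. Its spread was still estimated from all 9 arrays, Tconv among them. The source of TGFβ, its dose and the other contents of the lysate cannot be told apart here. Plk2 and Phlda3 were higher with platelet lysate, and Trp53inp1 and Sesn1 were lower. Thus 4 of 9 passed, beside 4.11% of all named genes, 1.54% higher and 2.57% lower, and 3.25% of all probe sets. Groups did not overlap for 8 of 9, beside 28.2%. The other 5 had log2 differences of 0.05 to 0.46. The sex-linked transcripts Xist and Eif2s3y differed by 0.32 and -0.06 between these groups, without passing.

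Mdm2, the ligase that marks p53 for destruction, read 8.12, 7.87 and 8.02 in the Tconv arrays 1 to 3. It read 8.59, 8.70 and 8.61 in purTGFβ_iTreg and 8.87, 8.90 and 8.79 in pltTGFβ_iTreg. Every iTreg array lay above every Tconv array, and the platelet arrays lay above the purified ones. Against Tconv it rose by 0.63 ± 0.09 (SE) with purified TGFβ, which is 1.55-fold (limma, adjusted p = 9.02e-05), and by 0.85 ± 0.09 with platelet lysate (adjusted p = 8.29e-06). Between the iTreg groups the log2 difference was 0.22 (95% interval 0.03 to 0.41, limma adjusted p = 0.226) and did not pass. The purified-TGFβ call was lost under quantile normalization, where the log2 difference was 0.45, and with the mean of all Mdm2 probe sets, 0.39.

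Ccng1 encodes cyclin G1, a p53 target that recruits a phosphatase to Mdm2. It read 9.60, 9.74 and 9.56 in Tconv, then 10.22, 10.12 and 10.22 with purified TGFβ, and 10.47, 10.43 and 10.66 with platelet lysate. The order of the groups was the same as for Mdm2, without overlap. Ccng1 rose 1.47-fold with purified TGFβ (log2 difference 0.55 ± 0.09, SE, limma adjusted p = 3.31e-04) and 1.85-fold with platelet lysate (0.89 ± 0.09, adjusted p = 7.99e-06). The gap of 0.33 between the iTreg groups (95% interval 0.14 to 0.53, limma adjusted p = 0.0567) fell short of the fold cutoff.

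Cdkn1a encodes p21, the inhibitor of cyclin-dependent kinases through which p53 stops the cell cycle. Its level was 10.13, 10.29 and 10.31 in Tconv, 9.22, 9.35 and 9.36 in purTGFβ_iTreg, and 9.69, 9.68 and 9.55 in pltTGFβ_iTreg. It thus stood lowest in every purified-TGFβ array and between the others in the platelet arrays. Cdkn1a was 1.90-fold lower than in Tconv with purified TGFβ (log2 difference -0.93 ± 0.09, SE, limma adjusted p = 3.40e-06) and 1.52-fold lower with platelet lysate (-0.60 ± 0.09, adjusted p = 1.26e-04). Between the iTreg groups it differed by 0.33 (95% interval 0.14 to 0.51, limma adjusted p = 0.0503), under the fold cutoff. The pair of p53 decamers shown above lies upstream of the earlier of the listed starts of Cdkn1a, which fell, and of Ccng1, which rose.

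Phlda3 encodes a small lipid-binding protein that competes with the kinase Akt for the membrane and so dampens growth signalling. The Tconv arrays read 8.28, 8.65 and 8.62, the purified-TGFβ arrays 7.02, 7.08 and 7.17, and the platelet arrays 7.66, 7.64 and 7.65. The 3 groups were fully apart, with purified TGFβ lowest. Phlda3 fell by 1.43 ± 0.10 (SE) on the log2 scale with purified TGFβ, a 2.69-fold lower level (limma, adjusted p = 4.35e-07), and by 0.87 ± 0.10 with platelet lysate (adjusted p = 2.85e-05). It was 1.48-fold higher with platelet lysate than with purified TGFβ (log2 difference 0.56, 95% interval 0.34 to 0.78, limma adjusted p = 0.00662).

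Plk2 encodes a polo-like kinase induced by stress and by mitogens. It had the widest fall of the 9 genes, from 10.43, 10.30 and 10.21 in Tconv to 6.69, 6.63 and 6.69 with purified TGFβ. All 3 platelet arrays carried the same value, 8.83. Such ties to the last deposited digit occurred in that group in 0.759% of probe sets, so the SD of 0.00 understates the spread of Plk2 there. Plk2 was 12.5-fold lower than Tconv with purified TGFβ (log2 difference -3.64, 95% interval -3.81 to -3.47, limma adjusted p = 4.58e-11). With platelet lysate it was 2.79-fold lower (-1.48, 95% interval -1.65 to -1.30, adjusted p = 6.10e-08). The level was thus 4.47-fold higher with platelet lysate than with purified TGFβ (log2 difference 2.16, 95% interval 1.99 to 2.34, limma adjusted p = 7.77e-08).

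Plk3, a relative of Plk2 that takes part in the DNA damage response, varied far less. It read 7.54, 7.71 and 7.79 in Tconv, 7.15, 7.12 and 7.13 in purTGFβ_iTreg, and 7.65, 7.58 and 7.54 in pltTGFβ_iTreg. Only the purified-TGFβ arrays stood apart, since the platelet arrays overlapped Tconv. The fall with purified TGFβ was 1.46-fold (log2 difference -0.55 ± 0.08, SE, limma adjusted p = 2.17e-04), and it was under the log2 cutoff of 0.5 without Tconv replicate 3 or with array medians centred, at -0.49 in both, which still passed at 1.4-fold. With platelet lysate the difference from Tconv was -0.09 (95% interval -0.27 to 0.10). The iTreg groups differed by 0.46 (95% interval 0.28 to 0.64, limma adjusted p = 0.00661), just under the fold cutoff.

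**Figure D2:**
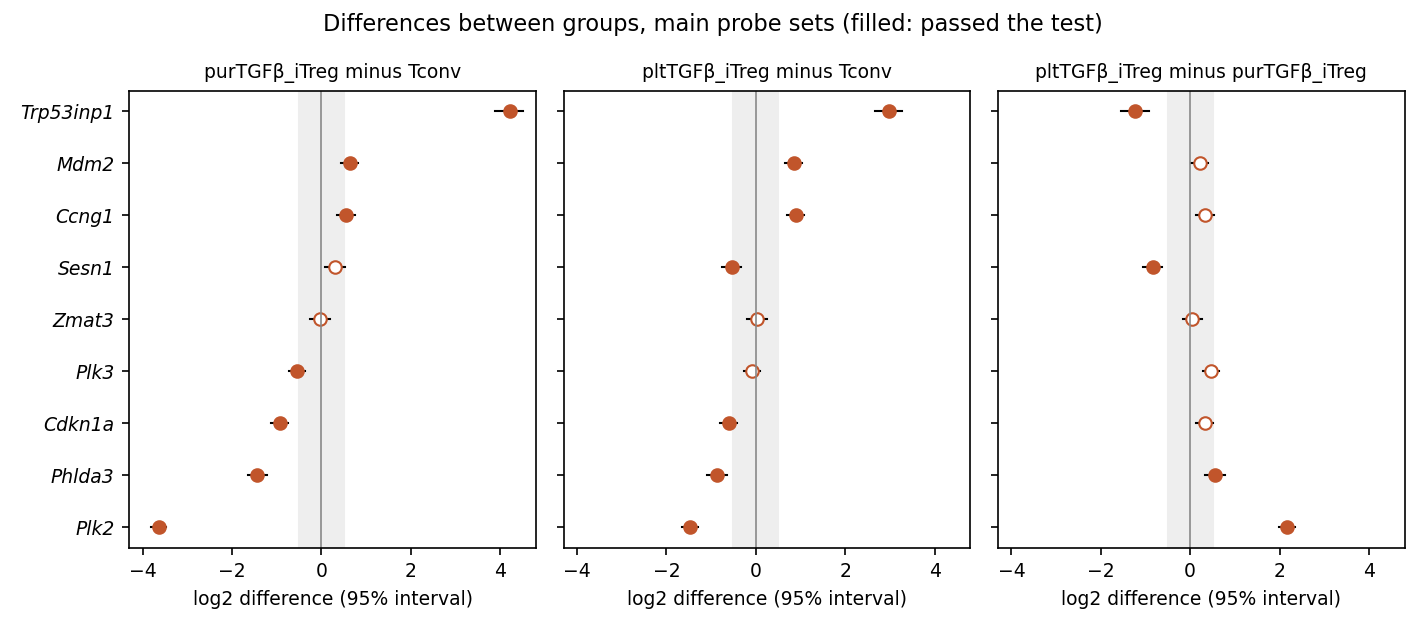
Log2 differences of the main probe sets in the 3 comparisons, with 95% intervals; filled points passed the test and the grey band marks differences under 0.5 in size. Trp53inp1 lies farthest to the right against Tconv, at 4.21 and 2.97, and Plk2 farthest to the left, at -3.64 and -1.48; both change side in the comparison of the iTreg groups.

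Trp53inp1 encodes a nuclear and autophagy protein that works with p53 and its relatives. It had the widest rise. Tconv arrays read 7.18, 7.35 and 7.06, purified-TGFβ arrays 11.39, 11.19 and 11.64, and platelet arrays 9.91, 10.20 and 10.40. No array of 1 group reached into another, and purified TGFβ was highest. Trp53inp1 rose 18.5-fold with purified TGFβ (log2 difference 4.21 ± 0.14, SE, limma adjusted p = 1.70e-09) and 7.84-fold with platelet lysate (2.97 ± 0.14, adjusted p = 2.67e-08). It was 2.36-fold lower with platelet lysate than with purified TGFβ (log2 difference -1.24, 95% interval -1.55 to -0.92, limma adjusted p = 3.11e-04).

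Sesn1 encodes sestrin 1, which senses oxidants and leucine and restrains the growth kinase mTORC1. It read 9.25, 9.01 and 8.91 in Tconv, 9.35, 9.34 and 9.38 with purified TGFβ, and 8.54, 8.62 and 8.40 with platelet lysate. Tconv lay between the iTreg groups, with purified TGFβ above it and platelet lysate below. The difference from Tconv with purified TGFβ was 0.30 (95% interval 0.08 to 0.52, limma adjusted p = 0.0287), under the fold cutoff. With platelet lysate Sesn1 fell by 0.54 ± 0.10 on the log2 scale (adjusted p = 9.07e-04). That call missed the fold cutoff, also at 1.4-fold, without Tconv replicate 1 (-0.44), without pltTGFβ_iTreg replicate 3 (-0.48) and with array medians centred (-0.48). Between the iTreg groups Sesn1 was 1.79-fold lower with platelet lysate (log2 difference -0.84, 95% interval -1.06 to -0.62, limma adjusted p = 3.85e-04).

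Zmat3 encodes an RNA-binding zinc finger protein that p53 raises. It read 7.82, 7.51 and 7.56 in Tconv, 7.52, 7.72 and 7.57 in purTGFβ_iTreg, and 7.63, 7.74 and 7.59 in pltTGFβ_iTreg. All groups overlapped. The log2 differences from Tconv were -0.03 (95% interval -0.25 to 0.19) and 0.03 (95% interval -0.19 to 0.24), and that between the iTreg groups was 0.05 (95% interval -0.17 to 0.27). These intervals leave out differences as large as the fold cutoff of 0.5.

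Ordered by group, the genes fell into several patterns. Mdm2 and Ccng1 were highest with platelet lysate, Sesn1 and Trp53inp1 were highest with purified TGFβ, and Plk2, Phlda3, Cdkn1a and Plk3 had their highest mean in Tconv. For Plk2, Phlda3, Cdkn1a and Trp53inp1, the platelet group lay between Tconv and purified TGFβ. The neighbours in these orders that did not differ beyond the test were the iTreg groups for Mdm2, Ccng1 and Cdkn1a, Tconv and purified TGFβ for Sesn1, and both pairs with platelet lysate for Plk3.

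The remaining 10 probe sets gave a check on another stretch of the same transcripts. A second Cdkn1a probe set fell by 1.01 with purified TGFβ and by 0.70 with platelet lysate on the log2 scale, close to the main one. Those of Ccng1 rose more than the main probe set, by 1.21 and 1.55 with purified TGFβ and by 1.57 and 1.85 with platelet lysate. A second Mdm2 probe set rose by 0.90 and 1.33. The dimmer Trp53inp1 probe set rose by 3.00 and 1.78, and its 3 platelet arrays again carried 1 value, 6.71.

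For Sesn1, 2 other probe sets above a mean of 7 were also called lower with platelet lysate than with purified TGFβ, at -0.95 each. Against Tconv they were lower with platelet lysate, at -0.51 and -0.94, and read 0.44 and 0.02 with purified TGFβ, without passing. The other probe sets of Mdm2, Plk2 and Sesn1 had means of 3.26, 3.34 and 3.56 and passed in no comparison. Against Tconv those of Mdm2 read -0.36 and -0.28, opposite in sign to the main probe set. The deposited values hold no detection calls, so whether such dim probe sets read above background was not settled.

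**Figure D3:**
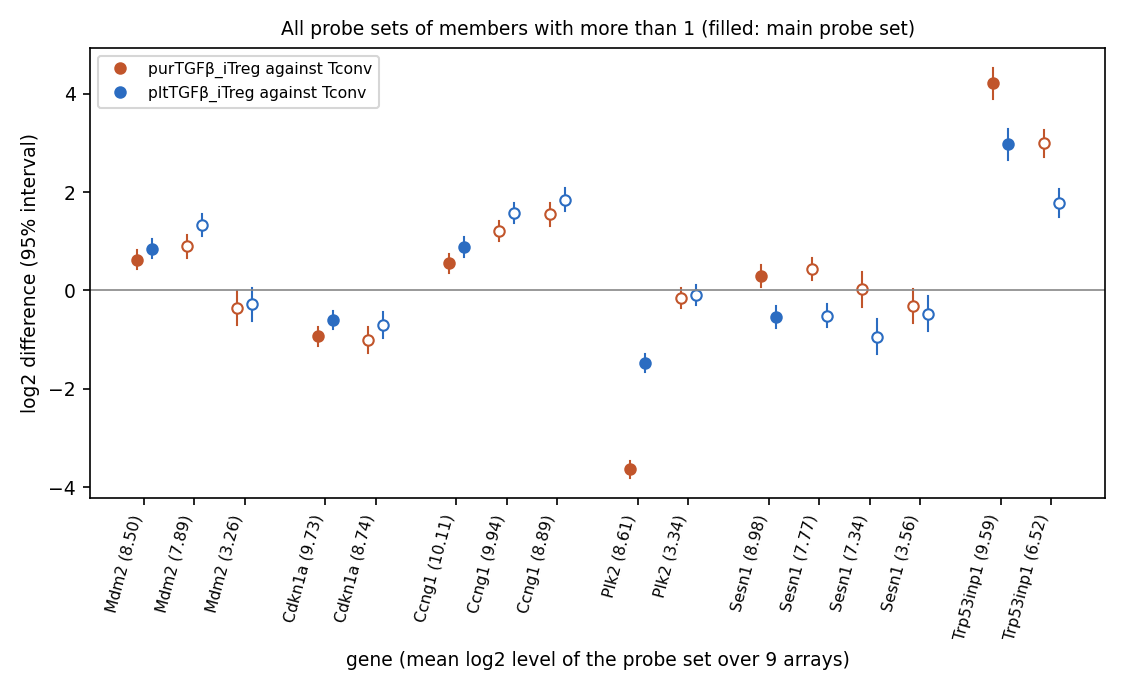
Log2 differences from Tconv, with 95% intervals, of every probe set of the 6 genes that have more than 1; orange is purTGFβ_iTreg, blue is pltTGFβ_iTreg, filled points are main probe sets, and the number beside each gene is the mean log2 level of the probe set. Probe sets of Cdkn1a, Ccng1 and Trp53inp1 lie on 1 side of 0, while the dim ones of Mdm2, Plk2 and Sesn1 read -0.48 to -0.09, without passing.

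Other genes of the pathway were described from lists, by counts without a list test. Among 17 measured regulators of p53, 10 rose and 1 fell with purified TGFβ, with a median of 0.55 against -0.17 over all named genes. With platelet lysate 9 rose and 1 fell, with a median of 0.56 against -0.16. Over all named genes 14.5% and 13.9% were called higher. Under quantile normalization 7 rose and 1 fell in each comparison, with medians of 0.41 and 0.35. Of all 18193 named genes 2262 and 2180 were then called higher, and 3591 and 3497 lower. As deposited, these numbers were 2632 and 2521 higher, and 2707 and 2673 lower. Hipk2, a kinase that phosphorylates p53, rose by 2.38 and 2.01 on the log2 scale. Its 7 other probe sets ran from -0.14 to 1.81 with purified TGFβ, and 2 of them passed. Sirt1, a deacetylase of p53, rose by 1.87 and 1.89, and Chek1, a kinase of the DNA damage checkpoint, by 1.23 in both. Atr, the kinase upstream of Chek1, rose by 1.28 and 1.32. Mdm4, the partner of Mdm2, rose by 1.10 and 0.70, and another Mdm4 probe set rose by 1.58 and 1.44, while a further one was called lower, at -0.68 and -0.73. Trp53bp1, a repair scaffold that binds p53, was the regulator that fell, by 0.68 and 0.57. Between the iTreg groups none of the 17 passed in limma, and their median was 0.02. With unadjusted p-values under 0.05, 3 of them, Mdm4, Hipk2 and Chek2, had log2 differences of -0.39, -0.37 and -0.29. Their limma adjusted p-values of 0.0133, 0.0294 and 0.0690 met the cutoff, so they missed only the fold cutoff.

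The other p53 targets of arrest and repair are read against the same 29.3% and 28.5% of all named genes called. With purified TGFβ 1 of 14 rose and 1 fell, and with platelet lysate 2 rose and 2 fell, with medians of -0.19 and -0.20. Gadd45a, a growth arrest gene, read -0.49 without passing with purified TGFβ. Quantile normalization gave 1 rise and 3 falls, then 2 rises and 4 falls. Under that scaling 2262 and 2180 of all 18193 named genes were called higher, and 3591 and 3497 lower. Rrm2b, a subunit of the enzyme that makes DNA precursors, rose by 0.90 and 0.80. The DNA polymerase gene Polk rose by 0.73 with platelet lysate and read 0.50 with purified TGFβ, which passed at 1.4-fold only. Another Polk probe set rose in both comparisons, by 0.94 with purified TGFβ and by 1.21 with platelet lysate. Ptp4a3, a phosphatase gene, fell by 0.65 with platelet lysate. Sesn2, the relative of Sesn1, fell by 0.74 and 1.35. It was the 1 gene of this list that passed between the iTreg groups, at -0.61 with platelet lysate, beside 4.11% of all named genes. Another Sesn2 probe set read -0.31 there and -0.38 with purified TGFβ against Tconv, without passing, and fell by 0.70 with platelet lysate against Tconv. Tigar, a brake on glycolysis, and Ercc5, a repair nuclease gene, read 0.35 and 0.37 there, under the fold cutoff.

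Targets tied to cell death moved both ways. With purified TGFβ 3 of 12 rose and 4 fell, and with platelet lysate 3 rose and 2 fell, beside 29.3% and 28.5% of all named genes called. The medians were -0.15 and -0.06, and -0.30 and -0.12 under quantile normalization. Pmaip1, which encodes the death inducer Noxa, read 5.94, 6.06 and 6.00 in Tconv, 8.54, 8.32 and 8.39 with purified TGFβ, and 7.97 to 8.05 with platelet lysate. Both iTreg groups lay above Tconv. It rose by 2.42 and 2.01 on the log2 scale. Perp, a membrane protein gene, rose by 2.24 and 2.73, and Apaf1, the scaffold that activates caspases, by 0.99 and 1.03. Bbc3, which encodes the death inducer Puma, fell by 1.06 and 1.35. Siva1, whose product takes part in death receptor signalling, fell by 0.81 and 0.64. The nuclease gene Aen fell by 0.72 and the death receptor gene Fas by 0.52 with purified TGFβ. Aen was also the 1 gene of the 12 that passed between the iTreg groups, 1.44-fold higher with platelet lysate, beside 4.11% of all named genes. Perp, at 0.49 there, passed at 1.4-fold only.

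Cell cycle genes that p53 lowers through p21 were read beside Cdkn1a. Of 13 measured, 4 rose and none fell with purified TGFβ, and 4 rose and 1 fell with platelet lysate. Of all named genes 29.3% and 28.5% were called in these comparisons, 14.5% and 13.9% as higher. Quantile normalization gave 4 rises and 1 fall, then 4 rises and 3 falls. Under that scaling 2262 and 2180 of all 18193 named genes were called higher, and 3591 and 3497 lower. The proliferation marker Mki67 rose by 1.75 and 1.63, the spindle checkpoint kinase gene Bub1 by 1.35 and 1.34, the cyclin gene Ccna2 by 0.64 and 0.67, and the topoisomerase gene Top2a by 0.76 and 0.53. Another Top2a probe set also rose, by 0.86 and 0.60, and a dim one read -0.38 and -0.31 without passing. Plk1, a mitotic kinase gene, fell by 0.61 with platelet lysate. Medians were 0.05 and -0.01, and -0.12 and -0.03 under quantile normalization. Between the iTreg groups none of the 13 passed in limma, and Ccnb2, Aurkb and Top2a had unadjusted p-values under 0.05, at -0.33, -0.28 and -0.23. Of these Ccnb2 (limma adjusted p = 0.0307) missed only the fold cutoff. With purified TGFβ against Tconv, Ccnb2 read 0.50, which passed at 1.4-fold only.

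**Figure D4:**
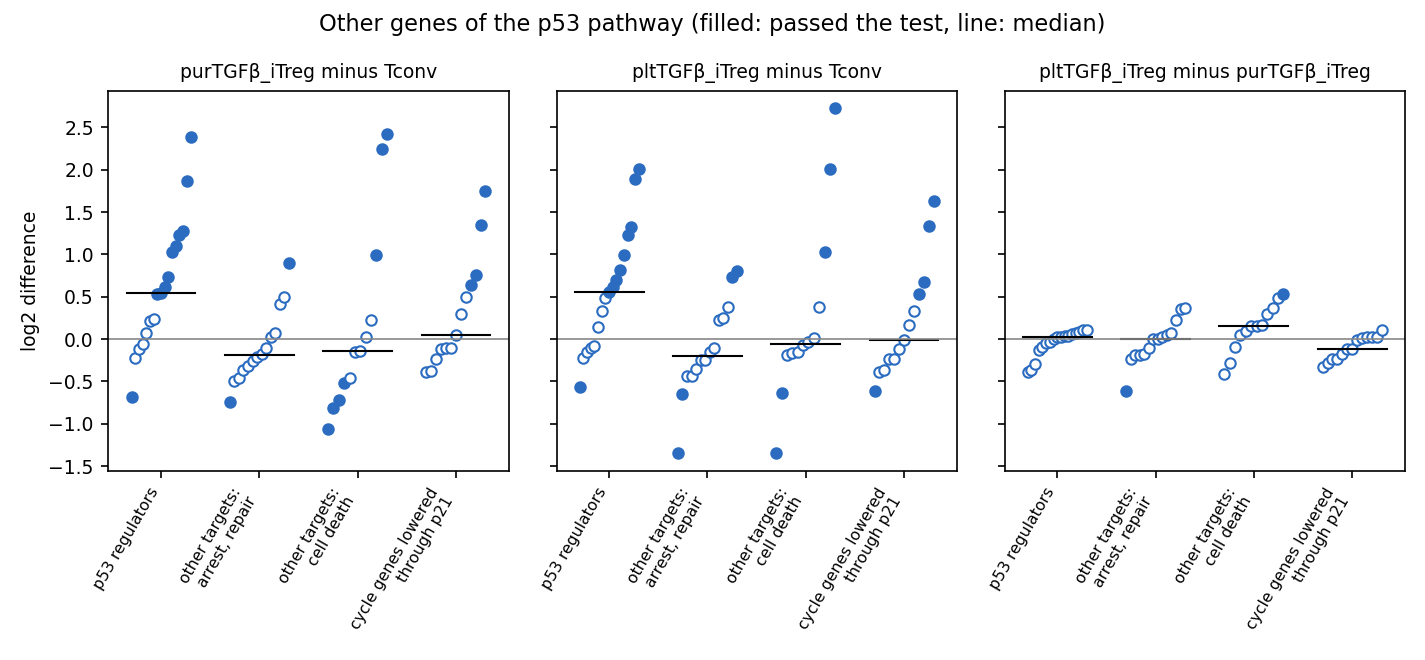
Log2 differences of the measured genes of 4 lists of the p53 pathway in the 3 comparisons, with 1 point per gene in order of size; filled points passed the test and the line is the median. Regulators have medians of 0.55 and 0.56 against Tconv, and the comparison of the iTreg groups shows few filled points in any list.

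Relatives of the stress genes moved with those genes in some cases and against them in others. By main probe set Mdm4 rose as Mdm2 did, and with platelet lysate Sesn2 fell as Sesn1 did. Cdkn1b encodes p27, a kinase inhibitor related to p21. It read 8.03, 7.87 and 7.63 in Tconv, 9.78, 9.75 and 9.71 with purified TGFβ, and 8.81, 8.74 and 8.91 with platelet lysate. Where Cdkn1a fell, Cdkn1b thus rose, by 1.90 and 0.98, and Cdkn1c, the other relative, fell by 0.74 and 0.68. Another Cdkn1b probe set rose by 1.03 with purified TGFβ and read 0.47 without passing with platelet lysate. Ccng2, the relative of Ccng1, rose by 1.73 and 0.77 and was 1.95-fold lower with platelet lysate than with purified TGFβ. Cdkn1b was 1.90-fold lower in that comparison. Plk4, the kinase of centriole duplication, rose by 1.39 and 1.43, in contrast to Plk2. Phlda1 rose by 0.84 and 1.15, where Phlda3 fell, Phlda2 fell by 0.51 with purified TGFβ, and Trp53inp2 fell by 0.86 with platelet lysate, where Trp53inp1 rose. Sesn3 read 0.16 and 0.10 without passing, but another Sesn3 probe set rose by 1.43 and 1.36. In all, 5 of 14 relatives rose and 3 fell with purified TGFβ, and 5 rose and 4 fell with platelet lysate. These counts stand beside 29.3% and 28.5% of all named genes called. The medians of the 14 were -0.30 and -0.23, and -0.18 and -0.12 under quantile normalization. Between the iTreg groups Cdkn1b, Ccng2 and Sesn2 passed, all lower with platelet lysate, beside 2.57% of all named genes called lower.

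The genes whose log2 levels followed Cdkn1a most closely over the 9 arrays were Mrm3, a mitochondrial RNA methyltransferase gene, Slc25a33, a mitochondrial carrier gene, and Tbx21, which encodes the Th1 regulator T-bet. Their Pearson r with Cdkn1a were 0.998, 0.997 and 0.997 among 16330 named genes compared. The points share the split between Tconv and iTreg arrays, and the values are a description.

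Markers of other cells were read beside these results. Of 16 measured platelet markers, 1 was higher with platelet lysate than with purified TGFβ, beside 1.54% of all named genes. It was the integrin gene Itgb3, which averaged 7.29 in Tconv, 4.28 with purified TGFβ and 6.03 with platelet lysate. Another Itgb3 probe set read 0.26 in that comparison without passing. The order of the means of the first is the order also seen for Plk2, Phlda3, Cdkn1a and Plk3, although the platelet arrays of Plk3 overlapped Tconv. The platelet chemokine genes Pf4 and Ppbp read 2.96 to 3.48 and 2.30 to 2.84 over all arrays. The mean level of the 16 was 4.37 to 4.51 in Tconv, 3.89 to 4.03 in purTGFβ_iTreg and 4.02 to 4.10 in pltTGFβ_iTreg. Of 4 CD8 and NK cell markers, Klrd1 was lower with platelet lysate than with purified TGFβ, by 1.27 on the log2 scale, and the mean of the 4 was 4.74 to 4.87, 5.27 to 5.40 and 4.81 to 4.99 in the same order of groups. Against Tconv, Klrd1 was 9.01-fold higher with purified TGFβ and 3.73-fold higher with platelet lysate, and the CD8 gene Cd8b1 was 1.97- and 2.06-fold lower. The main Cd8a probe set passed in no comparison. A dim one, with a mean of 3.58, was called at 0.69 with purified TGFβ against Tconv. Between the iTreg groups it was called at -0.59 with platelet lysate. The B cell gene Cd79b was 2.75- and 3.14-fold lower, and the mean of the 5 B cell markers was 4.42 to 4.50 in Tconv, 3.95 to 4.16 in purTGFβ_iTreg and 3.91 to 4.12 in pltTGFβ_iTreg. Of 3 erythroid markers Klf1 was lower, by 1.47- and 1.56-fold, and of 16 platelet markers 3 and 4 were lower than in Tconv and none higher. Over all named genes 14.9% and 14.7% were called lower. No myeloid marker of 6 passed against Tconv in limma by its main probe set. Among them Csf1r, Lyz2 and Adgre1 had unadjusted limma p-values under 0.05 and log2 differences of -0.49 to -0.31. Another Csf1r probe set was called lower with purified TGFβ, at -0.53. Under quantile normalization 1 of the 6 was lower in each comparison with Tconv, beside 3591 and 3497 of all 18193 named genes. At 1.4-fold Lyz2 passed as lower with platelet lysate. B cell, myeloid and erythroid markers gave no call between the iTreg groups in limma, and none of them had an unadjusted p under 0.05 there. The part of any of these cells in the results was not tested.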

How the data were processed

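Total RNA was read on Affymetrix mouse arrays. The authors deposited log2 values summarised with Robust Multichip Analysis (RMA) in Expression Console, per the series' design text, which also names Partek Genomics Suite 6.6. RMA compresses values near background, so folds of dim probe sets are understated. Precision is limited by 3 arrays a group.

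Of 45101 probe sets, 64 controls were left out. Of the 45037 tested, 34945 had 1 gene symbol in the platform annotation, 932 had several and were not named, and 9160 were not listed. One limma model (limma 3.58.1, R 4.3.3) over all 9 arrays gave moderated, two-sided tests with Benjamini-Hochberg adjustment over all probe sets, at an adjusted p under 0.1 and a log2 difference above 0.5. The authors used 1.4-fold and a false discovery rate of 10%, per the series' design text, and 1.4-fold was added as an alternative after seeing the data. Probe sets ending in _x_at stood for a gene only where it had no other. The fit was tested on simulated data. Figures used Python 3.11.15, pandas 2.3.3 and matplotlib 3.10.9.

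The genes and lists were chosen with earlier results of these data known, and the promoter motif after the windows were seen. All 10 genes are named, with up to 4 genes per list and comparison of lowest adjusted p, the 3 genes most like Cdkn1a, and Foxp3, Pf4, Ppbp and sex-linked genes as checks. Bbc3, Fas, Plk1, Cdkn1c, Trp53inp2, Phlda2, Ccnb2, Cd79b, Cd8b1, Klf1, Csf1r, Lyz2, Adgre1, Sesn3, Trp53bp1, Itgb3, Klrd1, Cd3e and Cd4 were named after their values were seen. So were Cd2, Cd5 and Cd8a. Trp53, Rpl5, Gdf15, Bax and Ccnb1 of the pathway, and some cell type markers, are not analysed here. Alternatives were 2 other scalings, a filter on dim probe sets, 2 variance models, a fit on the groups compared, a replicate block, averaging probe sets per gene, 2 cutoffs and leaving out each array.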

Additional observations from a re-analysis of the deposited data

How the results depend on the processing

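The number of the 9 genes that passed was 7, 7 and 4 for purTGFβ_iTreg against Tconv, pltTGFβ_iTreg against Tconv and pltTGFβ_iTreg against purTGFβ_iTreg. It was 6 to 7, 6 to 7 and 4 to 4 when each array was left out in turn. A 2-fold cutoff with an adjusted p under 0.05 left 3, 2 and 2, and no fold cutoff gave 7 between the iTreg groups, by construction. At 1.4-fold, chosen after seeing the data, the counts were 7, 7 and 4. The other settings kept each count within 1.5 times. For single genes, 445 values under an alternative kept their sign and their side of the cutoffs, 7 kept the sign and missed a cutoff (Mdm2, Plk3 and Sesn1, given in the report) and 7 changed sign, all for Zmat3. Against Tconv, Zmat3 with platelet lysate read -0.18 under quantile normalization, -0.03 and -0.01 without Tconv replicate 2 or 3 and -0.02 without pltTGFβ_iTreg replicate 2. With purified TGFβ it read 0.03 with centred medians, 0.07 without Tconv replicate 1 and 0.01 without purTGFβ_iTreg replicate 1. Leaving out 1 array at a time gave -0.03 to 0.12 and -0.09 to 0.07. The cause was not tested.

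With the replicate number as a block, 7, 7 and 4 genes passed, as without it. The numbers were not taken as pairs in the main fit. Correlations of same-numbered deviations between the iTreg groups were 0.19, 0.26 and 0.09. There 6 of 6 arrays correlated best with their own number, against 2 of 6 in each comparison with Tconv. Whether same-numbered iTreg arrays share an origin was not tested. Counts over all 45037 probe sets were 11640, 11377 and 1464. They were 4637, 4304 and 294 at 2-fold, and 24956, 23946 and 3286 with no fold cutoff.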
